A study of Saccharomyces cerevisiae with 30 samples.

Results

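The 36 genes described here encode the proteasome of Saccharomyces cerevisiae, the factors that assemble or activate it, and Rpn4, its transcription factor. They were listed by name and function: 7 genes of the 20S alpha ring, 7 of the 20S beta ring, 6 ATPases of the 19S base, 4 other subunits of the base, 8 subunits of the 19S lid, the 3 assembly and activator genes UMP1, ECM29 and BLM10, and RPN4. All 36 had a spot on the array, BLM10 had 2, and all 36 were tested among 5519 fitted genes. Transcript levels were measured on 30 arrays with 2 channels each. On an array of a strain, RNA of a test strain was hybridised together with RNA of a reference strain. Against the reference YJS6, the test strains were YKH100, YKH101, YJS7, YJS8 and YJS9. Against the reference YKH105, they were YKH104, YKH106, YKH107, YKH108 and YKH109. All strains, references included, were grown at 26 °C in CSM-Trp-His to an OD600 near 0.8 and then spent 45 min at 37 °C. The exception was a further group, YJS8 at 26 °C, in which neither YJS8 nor its reference YJS6 was shifted. Each strain group had 2 arrays with opposite channels, and YKH109 had 3. A further 7 arrays held 1 reference strain in both channels, 4 for YJS6 and 3 for YKH105. The labels name the strains without their genotypes, alleles or plasmids, so what each strain lacks or carries is not stated here. Whether the arrays of a group stem from separate cultures is not said, so each p-value covers only the spread from array to array, which may be technical.

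The proteasome degrades proteins tagged with ubiquitin. Its 20S core is a barrel of alpha and beta rings with the peptidase sites on the inner face of the beta rings. The 19S cap sits on the barrel: its base unfolds substrates with a ring of ATPases and holds ubiquitin receptors, and its lid removes ubiquitin. In yeast, Rpn4 binds an element upstream of most proteasome genes and activates them, and Rpn4 protein is itself a short-lived substrate of the proteasome, which closes a feedback loop. RPN4 transcription responds to heat and drug stress through Hsf1, Yap1, Pdr1 and Pdr3. The title of the series names TFIID and SAGA, the coactivators that deliver the TATA-binding protein to promoters, and the question is how transcript levels depend on them.

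Values are log2 ratios relative to the median spot of the same array, and a gene counts as higher or lower where limma's adjusted p, over all genes tested in that strain, was under 0.05. The labels do not give the direction of the ratio. It was read as likely test strain over reference, because GCN5, the acetyltransferase of SAGA, stood at -4.97 in YKH100 and -5.40 in YKH101, and SPT3, a SAGA subunit that contacts the TATA-binding protein, at -8.33 in YKH104 and -8.23 in YKH107, as in strains without these genes. GCN5 also had positive values, 2.48 in YJS7 and 3.21 in YJS9, and SPT3 had one of 1.43 in YKH108 (limma adjusted p = 0.0026). On the reverse reading every sign given here would turn. The medians of all spots ran from -1.23 to 0.67 over the arrays as deposited, so the median gene of an array sets the zero here. The gap of a member to the median gene is the same on the deposited scale, but its position against 0 is not. Replicate 2 of YKH100 and replicate 2 of YJS8 at 37 °C held identical values on all 6379 spots, and both were left out, which left 1 array for each of these strains. GCN5 read -6.01 on that repeated column. It read -4.96 on the other array labelled YKH100, against 0.51 on the other array labelled YJS8 at 37 °C and 0.47 and -0.08 on those at 26 °C, so the column's GCN5 value lay with YKH100 and went against its label as YJS8. On the 7 arrays with 1 strain in both channels, the median of the members lay between -0.26 and 0.10. With these arrays in the fit, limma called 0 members in either of the 2 self groups, and 1 member in each had an unadjusted p under 0.05. YKH109 replicate 2 stood apart, with values on 5955 spots against 6253 to 6388 on the others, and counts without it are also given.

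Relative to the median gene, proteasome genes were higher together in YKH107, YKH104, YKH101 and YKH109, and in part in YJS8 at 37 °C. In YJS9 the share of members higher was near that of all genes. Few or none of the members were called in YKH108, YJS7, YKH106, YKH100 and YJS8 at 26 °C, although in YKH106 35 of 36 were above 0. On the deposited scale, without centring, the members' median was above 0 in YKH104, YKH106, YJS7 and YKH100 alone. In YKH107, 24 of 36 members were higher, where 23.5% of all tested genes were, and 1 member was lower, where 24.9% were. In YKH109, 23 were higher and 1 lower, against 25.1% and 27.8% of all genes. YKH101 had 20 higher and 0 lower, against 18.9% and 20.4%. YKH104 also had 20 higher and 0 lower, in a strain where only 6.47% of all genes were higher and 7.09% lower. The members' own shares were 66.7% in YKH107, 63.9% in YKH109, and 55.6% in both YKH101 and YKH104, all above the shares of all genes. In YJS8 at 37 °C, on 1 array, 11 members were higher and 0 lower, against 8.14% and 7.74% of all genes, and with the repeated column taken as YKH100 alone 8 were higher in YJS8, against 8.56%. YJS9 had 9 higher, 25% of the members against 20.9% of all genes, and 0 lower against 23.1%. YKH108 had 6 higher, 16.7% against 17%, and 1 lower against 19.9%, a share at the background. In YJS7, 1 member was higher, against 7.38%, and 0 were lower, against 6.93%. When each array was scaled to a common median absolute deviation, which evens out the spread of the arrays, fewer members were higher in most strains: 11 in YKH107 (background 10.2%), 11 in YKH109 (background 12.1%), 11 in YKH101 (background 10.9%), 2 in YJS8 at 37 °C (background 4.28%), 2 in YJS9 (background 11.5%), 1 in YKH108 (background 9.47%) and 0 in YJS7 (background 6.42%). There were more in YKH104, with 22 (background 8.74%), and in YKH106, with 6 (background 5.55%). Several counts leaned on single arrays. YKH101 had 6 members higher without its replicate 1 and YKH107 had 15 without its replicate 1. YKH104 had 0 and 2 when either of its arrays stood alone, and YJS9 3 and 1. YKH108 had 0 without either of its own arrays and 3 without any 1 array of YKH104 or YKH107. YJS8 at 37 °C had 7 without either YKH107 array. Without YKH109 replicate 2 the count in YJS9 was 13 and that in YKH108 was 9.

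Limma called 0 members in YKH100, where 0.637% of all genes were higher and 0.691% lower, and 4 members had an unadjusted p under 0.05. It called 0 in YKH106, where 0.636% and 0.455% of all genes were called, and 6 had an unadjusted p under 0.05. With the repeated column taken as YKH100 alone, it called 0 members in YKH100 (background 3.09% higher and 2.69% lower), 4 had an unadjusted p under 0.05 and the members' median was 0.17. In YJS8 at 26 °C it called 0 members as well, with 0.0182% of all genes higher, 0% lower and 0 members under an unadjusted p of 0.05. The members nevertheless sat mostly above the median gene in the first 2 of these: 35 of 36 fitted values were above 0 in YKH106 and 32 in YKH100, against 51.8% and 52.1% of all genes. In YJS8 at 26 °C, 20 members were above 0.

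The median of the members was 0.73 in YKH107, a ratio of 1.66, and its 2 arrays gave 0.74 and 0.75. YKH104 had 0.60 (arrays 0.60 and 0.57) and YKH101 had 0.59 (arrays 0.60 and 0.54). The arrays of YKH104 and YKH101 interleave, those of YKH107 lie above them, and all 6 lie above the 7 self arrays. With arrays scaled to a common median absolute deviation this order turned, with fitted medians of 0.79 in YKH104, 0.53 in YKH107, 0.51 in YKH101 and 0.50 in YKH106. On the main scale, without that scaling, YJS8 at 37 °C followed YKH101 at 0.54 and YKH109 came next at 0.50 (arrays 0.37, 0.57 and 0.58). Lower down came YJS9 at 0.32, YKH100 at 0.30, YKH106 at 0.27, YKH108 at 0.19, YJS7 at 0.17 and YJS8 at 26 °C at 0.035. The median of all genes lay between -0.015 and 0.016 in every group. As deposited, without centring, the members' median stayed above 0 in YKH104 (0.70, 36 of 36 above 0), YKH106 (0.44), YJS7 (0.35) and YKH100 (0.068). It was below 0 in YKH101 (-0.099), YKH107 (-0.23), YKH109 (-0.41), YKH108 (-0.49), YJS9 (-0.19) and YJS8 at 37 °C (-0.33) and 26 °C (-0.23). In YKH107 the median of all genes on that scale was -0.96, so the members stood above the median gene there too. On that scale limma called 0 members higher in any strain, although 11 had an unadjusted p under 0.05 in YKH104, and it called 2 lower in YKH107, 2 in YKH108 and 8 in YKH109, against 53.4%, 29.8% and 60.6% of all genes. It called 0 members in YKH101, YJS9 and YJS8 at 37 °C, with 1, 4 and 0 at an unadjusted p under 0.05. Of all genes, 2.13% were higher and 31.1% lower in YKH101, 3.49% and 22.6% in YJS9, and 0.146% and 2.1% in YJS8. RNA content per cell and the amount of RNA loaded cannot be told apart in these ratios.

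**Figure D1:**
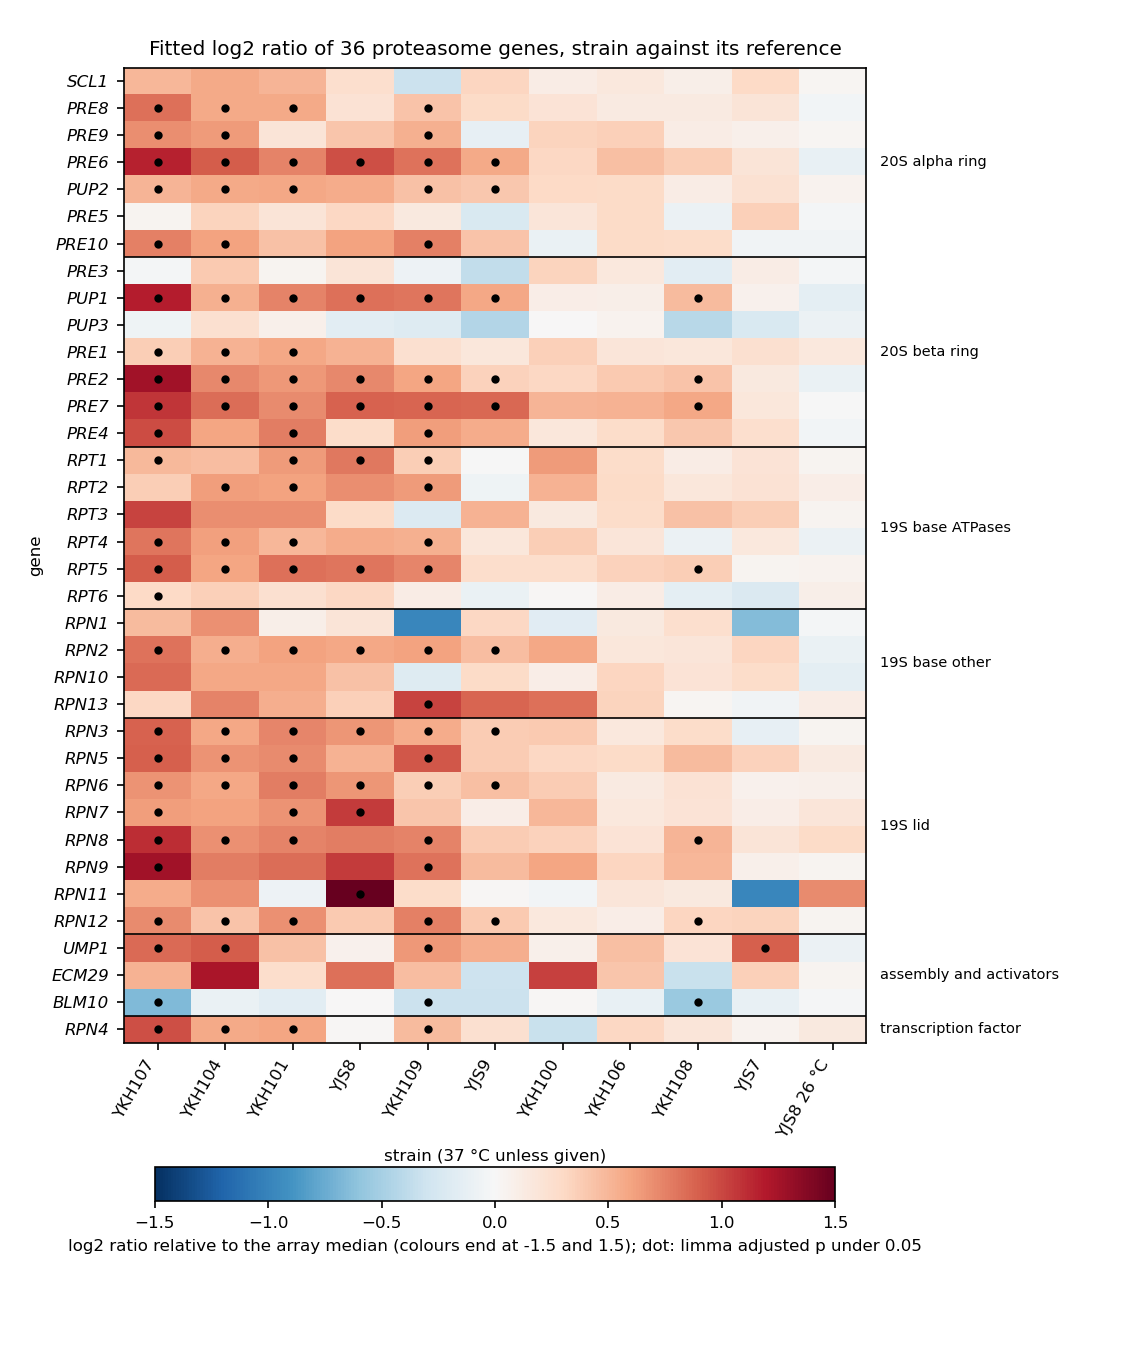
Colour gives the fitted log2 ratio of each of the 36 genes (rows, grouped by their place in the complex) in each strain against its reference (columns), relative to the median spot of the array, and a dot marks a limma adjusted p under 0.05. PUP1, PRE2 and PRE7 carry a dot in 7 columns, most values in the first 5 columns are above 0, and BLM10 is lower in 3 strains. RPN11 in YJS8 at 37 °C lies beyond the end of the colours. As deposited, the members' median is below 0 in YKH107, YKH101, YJS8, YKH109, YJS9 and YKH108.

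**Figure D2:**
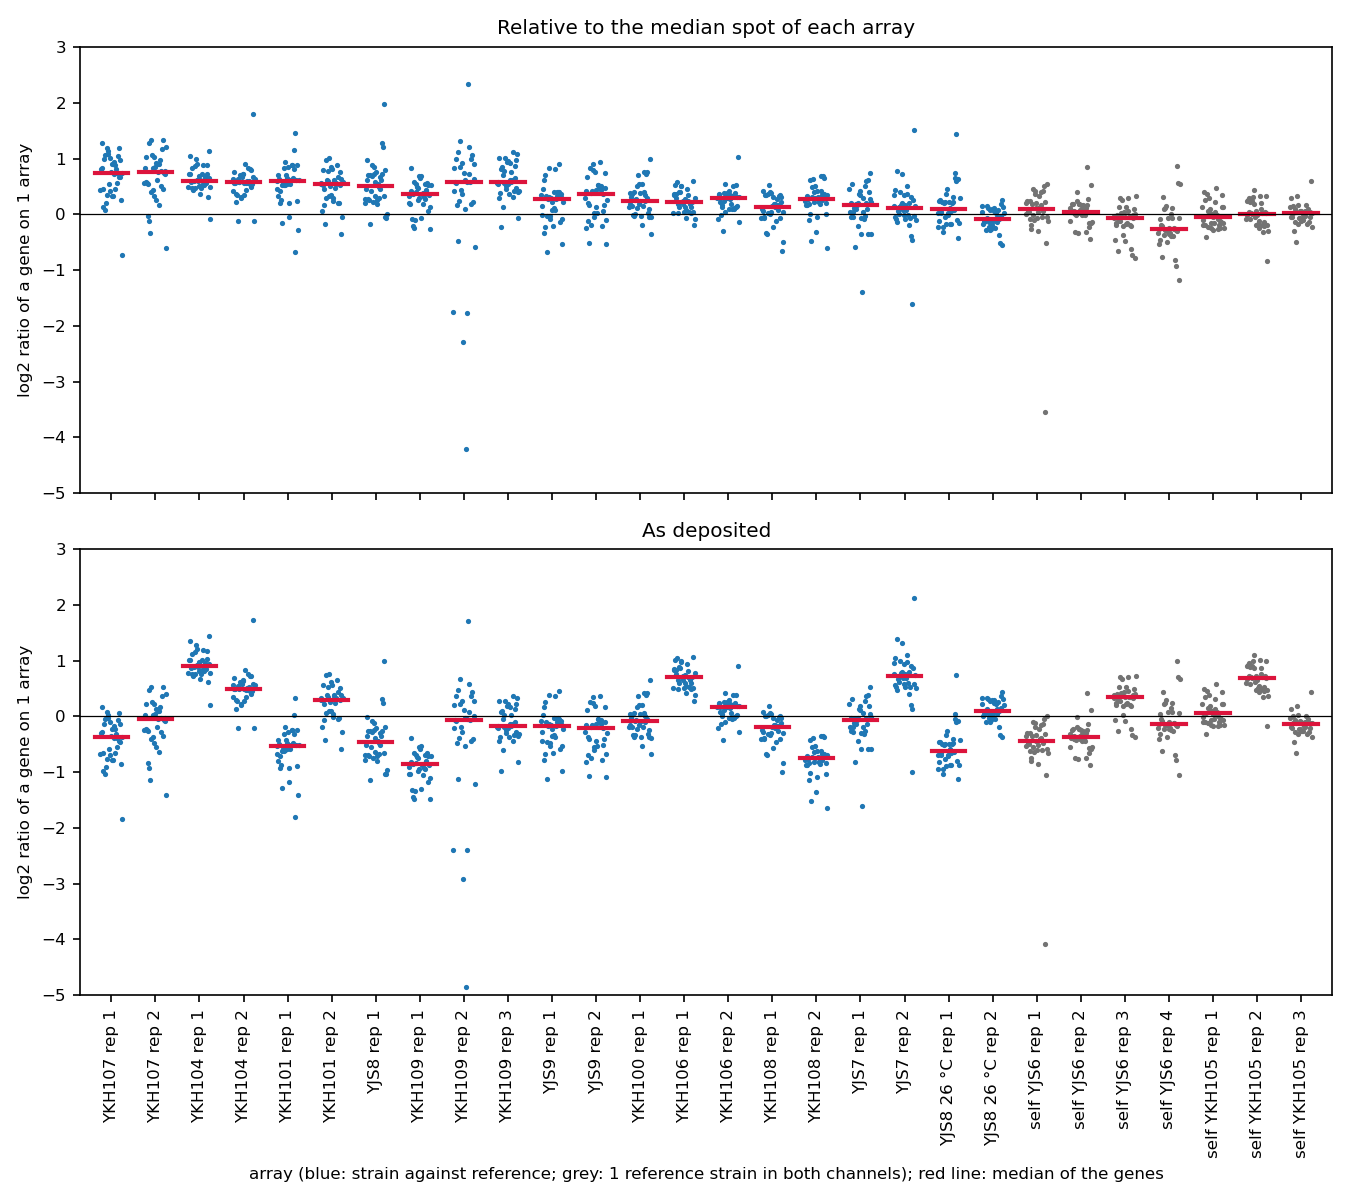
Each point is the log2 ratio of 1 proteasome gene on 1 array, relative to the array median (top) or as deposited (bottom), with strain arrays in blue, arrays with 1 reference strain in both channels in grey, and the median of the genes as a red line. The repeated column of YKH100 and YJS8 is left out. After centring, both arrays of YKH107, YKH104 and YKH101 have medians above those of all self arrays, and on the deposited scale the medians of self arrays themselves scatter around 0.

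RPN4 itself was higher in 4 strains, and these were the 4 in which 20 or more members were higher. Those counts include RPN4 itself, and in YKH101 and YKH104 they reached 20 only with it. On single arrays RPN4 stood at 0.74 and 1.20 in YKH107, 0.61 and 0.57 in YKH101, 0.49 and 0.64 in YKH104, and 0.52 and 0.42 in YKH109, where replicate 2 had no value. It stood at -0.25, -0.30 and 0.031 where YKH105 filled both channels, and at -0.12, -0.14, 0.33 and 0.54 where YJS6 did. The arrays of YKH107, YKH104 and YKH109 thus lay above all self arrays of their own reference, while those of YKH101 lay just above the highest YJS6 self array. The fitted values were 0.97 (SE 0.14, adjusted p = 0.000171) in YKH107, a ratio of 1.96, 0.59 (adjusted p = 0.00539) in YKH101, 0.56 (adjusted p = 0.0218) in YKH104 and 0.47 (adjusted p = 0.0135) in YKH109. In YJS8 at 37 °C, where 11 members were higher, RPN4 stood at 0.0023 on the 1 array and its fitted value was 0.015 (SE 0.20, adjusted p = 0.978). YJS9 gave 0.24 and YKH108 0.19, YKH106 0.31, YJS7 0.057, YJS8 at 26 °C 0.15 and YKH100 -0.34, none of them past the test. The call of RPN4 ended without either array of YKH101 (adjusted p = 0.0862 and 0.0567), without either array of YKH104 (adjusted p = 0.188 and 0.282) and without YKH109 replicate 1 (adjusted p = 0.135), each of which leaves 1 array of the strain with a value, and it remained without either array of YKH107. Without YKH109 replicate 3 RPN4 could not be tested in YKH109, since it then had a value in 1 channel order only. As deposited, the RPN4 values of YKH101 and YKH109 were -0.095 and -0.52, below 0, and those of YKH107 and YKH104 were 0.011 and 0.67.

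**Figure D3:**
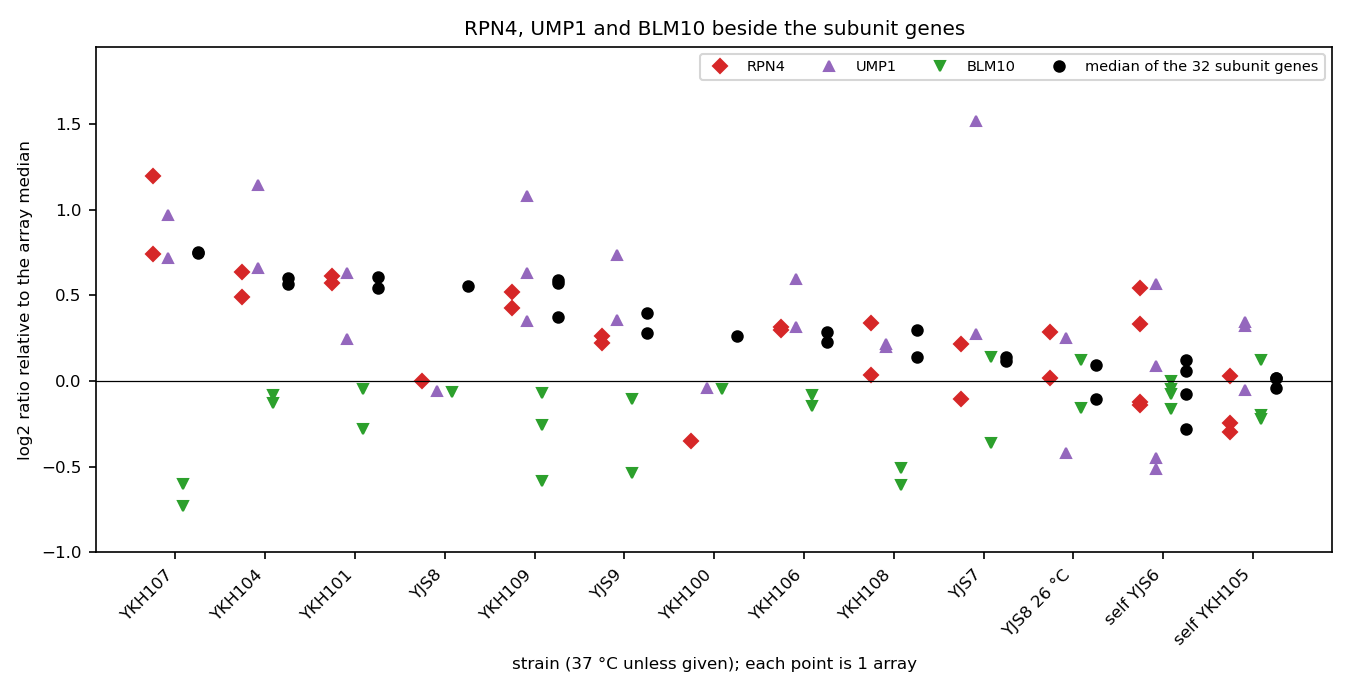
Log2 ratio relative to the array median of RPN4 (red diamonds), UMP1 (purple), BLM10 (green) and the median of the 32 subunit genes (black), 1 point for each array, by strain, with the self arrays at the right. RPN4 lies near or above the subunit median in YKH107, YKH104, YKH101 and YKH109, and near 0 in YJS8 at 37 °C, where the subunit median is at 0.56. On the deposited scale RPN4 in YKH101 and YKH109 is below 0.

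The alpha ring forms the outer faces of the barrel and its gate. Of its 7 genes, 5 were higher in YKH107 (background 23.5%), 5 in YKH104 (6.47%), 5 in YKH109 (25.1%) and 3 in YKH101 (18.9%). In YJS9 2 were higher (20.9%) and in YJS8 at 37 °C 1 was (8.14%), and none was lower in any strain. PRE6 was higher in 6 strains, more than any other alpha gene. Its arrays gave 1.29 and 1.03 in YKH107, 1.05 and 0.76 in YKH104, 0.70 and 0.80 in YKH101, 0.84, 0.57 and 1.02 in YKH109, 0.46 and 0.67 in YJS9 and 0.97 in YJS8, against -0.15 to 0.40 on the 7 self arrays. No array of these 6 strains overlapped the self arrays of PRE6. The fitted value was highest in YKH107, 1.16 (SE 0.14, adjusted p = 4.86e-05), a ratio of 2.23. PUP2 was higher in 5 strains, by 0.58 in YKH101 at most, and PRE8 in 4, by 0.83 in YKH107 at most. PRE9, the one alpha subunit yeast can grow without, and PRE10 were each higher in YKH107, YKH104 and YKH109, PRE9 by 0.70 and PRE10 by 0.76 in YKH107. PRE5 was higher in no strain, with fitted values from -0.23 to 0.36. SCL1 was higher in none either, with a standard error of 0.38. On YKH109 replicate 2 it stood at -1.76 beside 0.20 and 0.56 on the other 2 arrays. Without that array its standard error was 0.12 and its values were 0.56 in YKH104 (adjusted p = 0.00917) and 0.50 in YKH107 (adjusted p = 0.00463).

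The beta ring carries the 3 peptidase activities, and the calls fell unevenly over the genes of its catalytic subunits. PUP1, the trypsin-like subunit, and PRE2, the chymotrypsin-like subunit, were each higher in 7 strains, while PRE3, the caspase-like subunit, was higher in none. PUP1 arrays read 1.06 and 1.29 in YKH107, 0.52 and 0.98 in YKH101, 0.58, 1.11 and 0.85 in YKH109, 0.34 and 0.83 in YJS9, 0.45 and 0.63 in YKH104, 0.35 and 0.61 in YKH108 and 0.70 in YJS8, against -0.26, 0.0058, 0.13 and 0.31 on YJS6 self arrays and 0.37, 0.027 and 0.095 on YKH105 self arrays. PRE2 arrays read 1.18 and 1.34 in YKH107, 0.87 and 0.57 in YKH104, 0.52 and 0.78 in YKH101, 0.69 in YJS8, 0.40, 0.85 and 0.56 in YKH109, 0.37 and 0.49 in YKH108 and 0.28 and 0.41 in YJS9, against -0.024 to 0.33 on self arrays. The highest array of each gene was one of YKH107, and the lower YJS9 array of both genes and the lower YKH108 array of PUP1 came within the range of the self arrays. The fitted values in YKH107 were 1.17 (SE 0.12, adjusted p = 1.06e-05) for PUP1 and 1.26 (SE 0.12, adjusted p = 8.19e-06) for PRE2, ratios of 2.25 and 2.4. PRE3 read 0.08 and -0.13 in YKH107, 0.43 and 0.35 in YKH104 and -0.23 and -0.51 in YJS9, and its fitted values ran from -0.37 to 0.39. It also ranged from -0.76 to 0.25 on self arrays.

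Of the noncatalytic beta subunits, PRE7 was higher in 7 strains, with arrays at 1.08 and 1.06 in YKH107, 0.82 and 0.91 in YJS9 and 0.53, 1.31 and 0.77 in YKH109, against -0.29 to 0.45 on self arrays. Its fitted value was 1.07 in YKH107, 0.88 in YJS8, 0.87 in YKH109, 0.86 in YJS9 and 0.84 in YKH104, and it was the highest of the subunit genes in YKH108 at 0.58 (adjusted p = 0.0157). In YKH108 and YKH109 it turned below 0 on the deposited scale, at -0.10 and -0.034. PRE4 was higher in YKH107 (0.98), YKH101 (0.77) and YKH109 (0.63). PRE1 was higher in YKH101 (0.59), YKH104 (0.52) and YKH107 (0.37). PUP3 passed in no strain, and had the lowest value among the subunit genes in YKH107, YKH104, YKH106, YKH108, YJS9 and YJS8 at 37 °C, for example -0.44 in YJS9 and -0.42 in YKH108. In all, 5 of the 7 beta genes were higher in YKH107 (background 23.5%), 5 in YKH101 (18.9%), 4 in YKH104 (6.47%) and 4 in YKH109 (25.1%). There were 3 each in YJS8 at 37 °C (8.14%), YJS9 (20.9%) and YKH108 (17%).

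The ATPases Rpt1 to Rpt6 form the ring that unfolds substrates and threads them into the core. Of the 6 genes, 4 were higher in YKH107 (background 23.5%), 4 in YKH101 (18.9%), 4 in YKH109 (25.1%) and 3 in YKH104 (6.47%). There were 2 in YJS8 at 37 °C (8.14%), 1 in YKH108 (17%) and 0 in YJS9 (20.9%). RPT5 was higher in all of these strains but YJS9. It read 0.89 and 0.93 in YKH107, 0.84 and 0.81 in YKH101, 0.64, 0.61 and 0.96 in YKH109, 0.62 and 0.57 in YKH104, 0.76 in YJS8 and 0.31 and 0.41 in YKH108, against -0.049, -0.022 and -0.11 on YKH105 self arrays and -0.063, 0.17, -0.044 and -0.24 on YJS6 self arrays. All arrays of these 6 strains lay above all self arrays, and the fitted values ran from 0.36 (adjusted p = 0.0387) in YKH108 up to 0.91 (adjusted p = 9.83e-05) in YKH107. RPT1 and RPT4 were each higher in 4 strains and RPT2 in 3. RPT1 had its highest value in YJS8, 0.79 (adjusted p = 0.0371), RPT4 in YKH107, 0.81 (adjusted p = 0.00103). RPT6 was higher in YKH107 only, by 0.29 (adjusted p = 0.0454), and it stood at 0.36 in YKH104, its largest value, without passing the test there. RPT3 passed in no strain although it read 1.01 and 1.03 in YKH107 and 0.68 and 0.73 in YKH104, against -0.059 to 0.11 on the self arrays, the narrowest self range of all members. Its standard error was 0.53, and on YKH109 replicate 2 it stood at -2.29 beside 0.69 and 0.94. Without that array RPT3 was higher in YKH107 (1.02, SE 0.11, adjusted p = 1.76e-05), YKH104 (0.70, adjusted p = 0.0019) and YKH101 (0.69, adjusted p = 0.000389).

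The other base genes encode the scaffolds Rpn1 and Rpn2 and the ubiquitin receptors Rpn10 and Rpn13. RPN2 was higher in 6 strains. Its arrays read 0.72 and 0.90 in YKH107, 0.36, 0.58 and 0.91 in YKH109, 0.61 and 0.60 in YKH101, 0.53 in YJS8, 0.53 and 0.55 in YKH104 and 0.41 and 0.53 in YJS9, against -0.38 to 0.32 on self arrays, with no overlap. RPN13 was higher in YKH109 alone, by 1.01 (adjusted p = 0.0109) and its arrays read 2.34 on replicate 2 beside 0.18 and 0.58, and without that array it was 0.38 (adjusted p = 0.0355). In other strains RPN13 read 0.81 and 0.94 in YJS9, 0.89 and 0.59 in YKH104 and 0.61 and 0.47 in YKH101, and without YKH109 replicate 2 it was higher in YJS9 (0.87, adjusted p = 0.000255) and YKH104 (0.74, adjusted p = 0.0039). RPN10 and RPN1 passed in no strain with all arrays. RPN10 read 0.94 and 0.76 in YKH107 and -1.77 on YKH109 replicate 2, and without that array it was 0.85 in YKH107 (adjusted p = 0.000504). RPN1 stood at -4.21 on YKH109 replicate 2, the lowest value of any member on any array, beside 0.69 and 0.61 on the other 2.

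The lid holds the deubiquitinase Rpn11, its partner Rpn8 and the scaffold subunits Rpn3, Rpn5, Rpn6, Rpn7, Rpn9 and Rpn12. Of its 8 genes, 7 were higher in YKH107 (background 23.5%), 6 in YKH101 (18.9%), 6 in YKH109 (25.1%) and 5 in YKH104 (6.47%). There were 4 in YJS8 at 37 °C (8.14%), 3 in YJS9 (20.9%) and 2 in YKH108 (17%). RPN3, RPN6 and RPN12 were each higher in 6 strains. RPN6 read 0.65 and 0.89 in YKH101, 0.56 and 0.78 in YKH107, 0.62 in YJS8, 0.57 and 0.60 in YKH104, 0.40 and 0.51 in YJS9 and 0.28, 0.57 and 0.31 in YKH109, against -0.33 to 0.044 on self arrays. Every one of these arrays lay above every self array. RPN12 had its highest fitted values in YKH109, 0.75 (adjusted p = 0.000205) from 2 arrays because replicate 2 had no value, and in YKH107, 0.70 (adjusted p = 0.000377). RPN3 stood highest in YKH107, at 0.89 (adjusted p = 0.00024).

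RPN8 was higher in 5 strains and read 1.05 and 1.18 in YKH107, 0.42, 0.99 and 0.87 in YKH109, 0.81 and 0.67 in YKH101, 0.55 and 0.81 in YKH104 and 0.33 and 0.69 in YKH108, against -0.29 to 0.17 on self arrays. As deposited its value in YKH108 was -0.18, below 0. RPN5 was higher in 4 strains, most in YKH109 at 0.93 (adjusted p = 0.000239). RPN11, the essential deubiquitinase, was higher only on the 1 array of YJS8 at 37 °C, at 1.91 (SE 0.52, adjusted p = 0.026). Its arrays against YJS6 scattered, with -0.36 and -1.60 in YJS7, -0.67 and 0.53 in YKH101, 1.45 and -0.034 in YJS8 at 26 °C and -3.54, -0.15, -0.014 and 0.87 where YJS6 filled both channels. Against YKH105 they ran from -0.073 to 0.88, with self arrays at -0.14, 0.049 and -0.13. RPN7 was higher in YJS8 (1.05), YKH101 (0.68) and YKH107 (0.62), and RPN9 in YKH107 (1.26, adjusted p = 0.00554) and YKH109 (0.81, adjusted p = 0.0189).

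UMP1 encodes the chaperone that is enclosed in the maturing core and becomes its first substrate. It read 0.28 and 1.52 in YJS7, 1.14 and 0.66 in YKH104, 0.97 and 0.72 in YKH107 and 0.35, 0.63 and 1.08 in YKH109, against -0.51, -0.45, 0.089 and 0.56 on YJS6 self arrays and 0.35, 0.32 and -0.05 on YKH105 self arrays. Both arrays of YKH104 and of YKH107 lay above the YKH105 self arrays, the lowest YKH109 array lay at the top of them, and the lower YJS7 array lay within those of YJS6. UMP1 was higher in each of the 4 strains: 0.90 (adjusted p = 0.0333) in YJS7, 0.90 (adjusted p = 0.0328) in YKH104, 0.85 (adjusted p = 0.0143) in YKH107 and 0.65 (adjusted p = 0.0189) in YKH109. It was the only member past the test in YJS7, and the 2 arrays there lay far apart. Without YJS7 replicate 2 limma called 0 members and without replicate 1 it called 2. The UMP1 call also ended without either array of YKH104 in that strain, without YKH107 replicate 1 in YKH107 and without YKH109 replicate 3 in YKH109. UMP1 stood at 0.55 in YJS9, 0.46 in YKH106, 0.44 in YKH101, 0.21 in YKH108, 0.082 in YKH100, 0.068 in YJS8 at 37 °C and -0.085 at 26 °C, none past the test. As deposited it was -0.11 in YKH107 and -0.26 in YKH109.

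BLM10 encodes an activator that caps the core in place of the 19S particle, and it was the one member to be lower in any strain. Its gene averages read -0.73 and -0.60 in YKH107, -0.51 and -0.61 in YKH108 and -0.26, -0.58 and -0.07 in YKH109, against 0.13, -0.20 and -0.22 on YKH105 self arrays. The fitted values were -0.66 (adjusted p = 0.0026) in YKH107, -0.56 (adjusted p = 0.0106) in YKH108 and -0.33 (adjusted p = 0.0373) in YKH109. The 2 spots of BLM10 agreed in YKH107 only. There the first spot read -0.54 and -0.61 and the second -0.92 and -0.59. In YKH108 the first read -0.995 and -1.17 and the second -0.018 and -0.042. In YKH109 the first read -0.50, -1.03 and -0.43 and the second -0.014, -0.14 and 0.29, so the low averages of these 2 strains came from 1 spot. Limma no longer called BLM10 lower in YKH109 without YKH109 replicate 1 or 2, or without either YKH107 array, or with no dye term, and it no longer did so in YKH108 without YKH108 replicate 2. BLM10 stood at -0.32 in YJS9, -0.16 in YKH101, -0.12 in YKH106, -0.11 in YKH104, -0.11 in YJS7, -0.018 in YJS8 at 26 °C, 0.0065 in YJS8 at 37 °C and 0.019 in YKH100. Some of these averages joined spots of opposite sign. In YKH104 the first spot read 0.28 and 0.18 and the second -0.45 and -0.43. On the 1 array of YJS8 at 37 °C they read -0.67 and 0.54.

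ECM29 encodes a protein that holds the core and the cap together. It had the highest value of all members in YKH104, 1.23, and in YKH100, 1.03, but it passed the test in no strain, with a standard error of 0.41 for 2 arrays. Its arrays read 0.65 and 1.81 in YKH104, 0.99 in YKH100, 0.79 in YJS8 at 37 °C, 0.26 and 0.78 in YKH107, 0.12, 0.90 and 0.40 in YKH109, -0.20 and 1.02 in YKH106, 0.75 and -0.024 in YJS7, 0.89 and -0.35 in YKH101, 0.63 and -0.55 in YJS8 at 26 °C, -0.083 and -0.53 in YJS9 and -0.67 and -0.0029 in YKH108. Where 1 strain filled both channels it ran from -1.18 to 0.60, wider than its fitted values across strains. The arrays of opposite channel order pulled it apart, and in opposite ways under the 2 references. With the test strain in channel 1, ECM29 was higher than with it in channel 2 in 4 of 4 strains against YJS6, by 0.45 to 1.23, and lower in 5 of 5 strains against YKH105, with gaps of -1.22 to -0.52. The 1 array of YKH100 had its test strain in channel 1, and the shared dye term of ECM29 was only -0.035. RPN9 had gaps of 0.84 to 1.25 against YJS6 and -0.39 to -0.07 against YKH105, and RPN7 0.62 to 1.12 and -0.094 to 0.22. Other members had gaps below 0 against YJS6. UMP1 had -1.24 to -0.38 against YJS6 and -0.50 to 0.48 against YKH105, PUP3 -0.70 to -0.45 and -0.073 to 0.72, and PRE4 -0.93 to -0.26 and -0.24 to 0.62.

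With 1 dye term for each reference, an alternative chosen after seeing the data, values from 2 arrays of opposite channel order did not move, and ECM29 was higher in YKH104 (1.23, adjusted p = 0.00134) and in YKH107 (0.52, adjusted p = 0.0295). RPN9 was then higher in YKH101 (0.84, adjusted p = 0.000144), YKH104 (0.76, adjusted p = 0.00134) and YKH108 (0.50, adjusted p = 0.00413) as well. On the 1 array of YJS8 at 37 °C, the same step moved RPN9 to 0.67 and RPN7 to 0.82, against 1.05 and 1.05 with 1 dye term in all. The 1 array of YKH100 had the same channel order, so its values of ECM29, RPN9 and RPN7 also depend on the choice of dye term. With 1 dye term for each reference, 14 members were higher in YJS9 and 2 lower, against 24.3% and 27.3% of all genes.

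**Figure D4:**
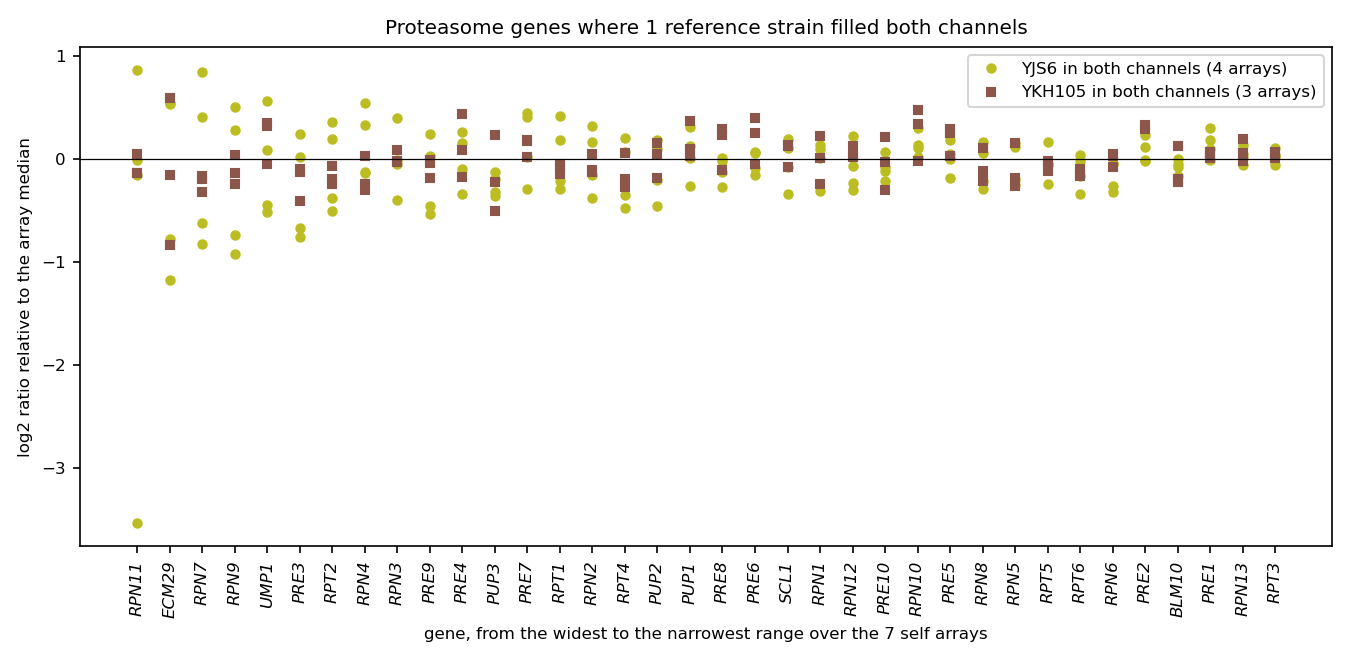
Each point is the log2 ratio of 1 proteasome gene, relative to the array median, on an array where the same reference strain filled both channels (4 arrays for YJS6 and 3 for YKH105), with genes ordered by their range. RPN11, ECM29, RPN7 and RPN9 spread most and RPT3 least, from -0.059 to 0.11.

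YKH109 replicate 2 was the array on which single members strayed most. The SD of all genes on it was 1.14, against 0.801 and 0.767 on the other 2 arrays of the strain, and it gave no value for 371 genes, among them PRE5, RPN12 and RPN4. On it 5 of the 33 members with a value, RPN1, RPT3, RPN10, SCL1 and RPN13, lay more than 1.5 from the members' median. At most 1 did on any other array. Of all genes, 13.5% lay as far from their own median on replicate 2, against 6.26% and 5.15% on replicates 1 and 3. All strains share 1 error estimate per gene, so this array enters the calls of the others too. Without it 26 members were higher in YKH101 (background 20.9%), 25 in YKH104 (7.8%), 27 in YKH107 (25.7%), 13 in YJS9 (23.1%) and 9 in YKH108 (19.4%). In YKH109 itself 24 were higher and 0 lower, against 22.1% and 26.5% of all genes. There RPN1, SCL1, RPT3 and RPN10 changed sign. The first 3 stood at 0.65, 0.38 and 0.81 without the array, beside -0.98, -0.32 and -0.21 with it, and all 3 passed the test only without it (adjusted p = 0.0179, 0.0222 and 0.000118). RPN10 stood at -0.19 with the array, while the other 2 arrays read 0.38 and 0.77.

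**Figure D5:**
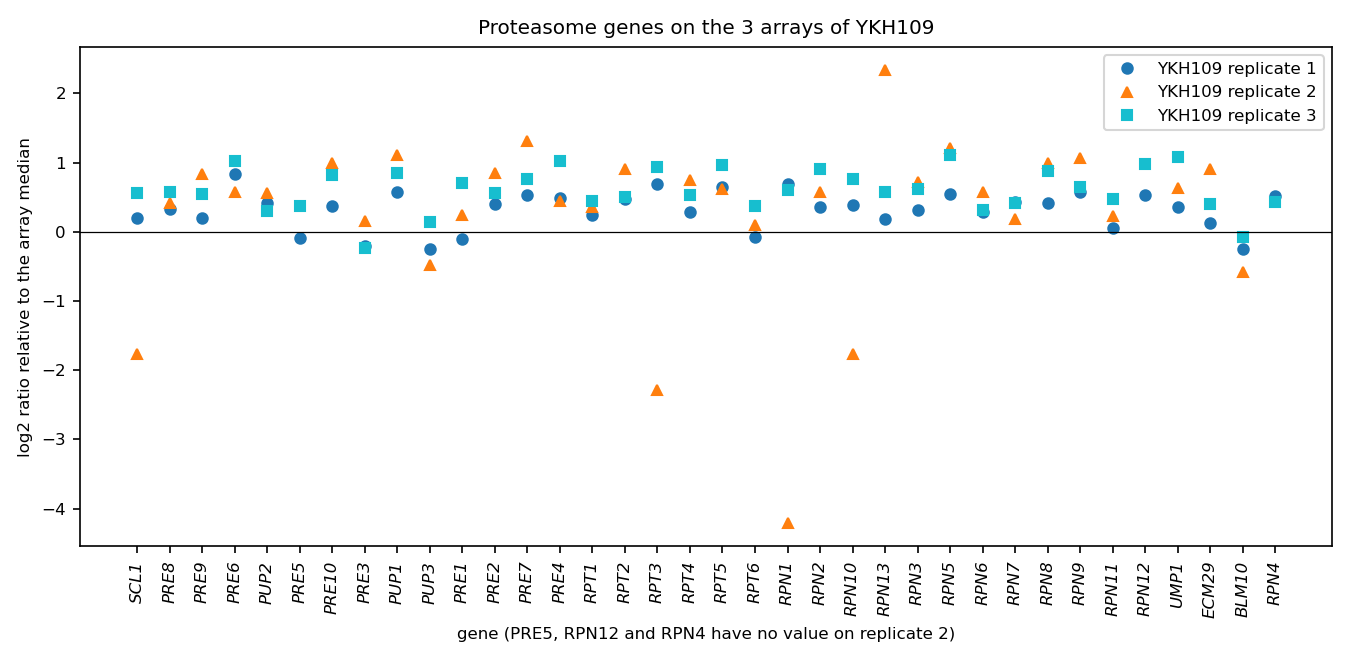
Log2 ratio of each proteasome gene, relative to the array median, on the 3 arrays of YKH109. Replicate 2 departs from replicates 1 and 3 most at RPN1 (-4.21), RPT3 (-2.29), RPN10 (-1.77), SCL1 (-1.76) and RPN13 (2.34). Replicates 1 and 3 also differ at some genes, such as PRE1 (-0.11 and 0.71) and UMP1 (0.35 and 1.08).

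The subunit genes at either end of each strain were often the same. In YKH107 PRE2, RPN9 and PUP1 stood highest and PUP3 (-0.068), PRE3 (-0.025) and PRE5 (0.045) lowest. In YKH104 PRE6 (0.91), PRE7 (0.84) and RPN9 (0.76) stood highest and PUP3 (0.24), PRE5 (0.34) and RPT6 (0.36) lowest. YKH101 had RPN9 (0.84), RPT5 (0.83) and RPN6 (0.77) at the top and RPN11 (-0.071), PRE3 (0.036) and PUP3 (0.071) at the bottom. PUP3 was thus among the 3 lowest in each of these 3 strains. YKH109 had RPN13, RPN5 and PRE7 at the top and RPN1, SCL1 and RPT3 at the bottom, all values given above. YJS9 had RPN13 (0.87), PRE7 and PUP1 (0.58) at the top and PUP3, PRE3 and PRE5 (-0.23) at the bottom. YJS8 at 37 °C had RPN11, RPN7 and RPN9 at the top, the 3 lid genes whose YJS6 self arrays spread widely, and PUP3 (-0.16), PRE3 (0.19) and RPN1 (0.20) at the bottom. YKH108 ran from PUP3, PRE3 (-0.16) and RPT6 (-0.14) to RPN9 (0.50), RPN8 (0.51) and PRE7, and YKH106 from PUP3 (0.052), PUP1 (0.094) and RPN12 (0.097) to PRE2 (0.39), PRE6 (0.45) and PRE7 (0.52). YKH100 ran from RPN1 (-0.17), PRE10 (-0.10) and RPN11 (-0.045) to RPN9 (0.59), RPT1 (0.64) and RPN13 (0.83). That RPN9 value, from 1 array, depends on the choice of dye term. YJS7 ran from RPN11 (-0.98), RPN1 (-0.65) and PUP3 (-0.23) to RPN5 (0.35), PRE5 (0.36) and RPT3 (0.37). YJS8 at 26 °C ran from PUP1 (-0.15), RPN10 (-0.14) and PRE6 (-0.11) to RPN7 (0.18), RPN8 (0.29) and RPN11 (0.71).

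Across the 11 groups, 3 members (PUP1, PRE2 and PRE7) were higher in 7, 6 (PRE6, RPT5, RPN2, RPN3, RPN6 and RPN12) in 6 and 2 (PUP2 and RPN8) in 5. At the other end, 9 members were higher in none. These were SCL1, PRE5, PRE3, PUP3, RPT3, RPN1, RPN10, ECM29 and BLM10. The standard error of a value from 2 arrays was 0.12 for PUP1 and 0.12 for RPN6, against 0.86 for RPN1, 0.53 for RPT3, 0.42 for RPN10, 0.41 for ECM29 and 0.38 for SCL1. PRE3 and PRE5 had standard errors of 0.15 and 0.18 and low values. The median standard error over all genes in YKH107 was 0.17.

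Some members lie next to the genes used to read the direction. PUP2 is the neighbour of GCN5 and RPT3 is 1 gene away from SPT3 in the reference annotation. In the strains with low GCN5, PUP2 stood at 0.30 in YKH100 and 0.58 in YKH101, near the members' medians of 0.30 and 0.59. In those with low SPT3, RPT3 stood at 0.70 in YKH104 and 1.02 in YKH107, beside medians of 0.60 and 0.73.

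Differences between strains with the same reference strain were tested within the same fit, in 20 pairs of shifted strains and between the 2 temperatures of YJS8. All of them share arrays with other pairs. In YKH107 minus YKH106, 11 members were higher, against 11.3% of all genes, the largest number of the 21 differences. They were PUP1 (1.08, adjusted p = 0.00086), RPN8 (0.91), PRE2 (0.87, adjusted p = 0.0035), RPN3 (0.73), PRE6 (0.71), PRE8 (0.69), RPN4 (0.66, adjusted p = 0.0279), RPN2 (0.64), RPN12 (0.61), RPT5 (0.56) and RPN6 (0.53). PUP1 arrays read 1.06 and 1.29 in YKH107 and 0.015 and 0.17 in YKH106, with no overlap. In YKH108 minus YKH107, 8 members were lower, against 8.01% of all genes: RPT4 (-0.90), PRE2 (-0.83), PRE6 (-0.79), RPN4 (-0.78), PRE8 (-0.70), PUP1 (-0.70), RPN2 (-0.63) and RPN3 (-0.61). RPN4 read 0.034 and 0.34 in YKH108 and 0.74 and 1.20 in YKH107, and its adjusted p for the difference was 0.0167. RPT4 read 0.14 and -0.32 in YKH108 and 0.76 and 0.85 in YKH107 (adjusted p = 0.0135). In YJS7 minus YKH101, 4 members were lower, against 5.98% of all genes: RPN3 (-0.85), RPT5 (-0.78), RPN6 (-0.71) and PUP1 (-0.69). RPN3 read -0.039 and -0.20 in YJS7 and 0.89 and 0.57 in YKH101. On the deposited scale none of these differences passed in the same direction. There the members' median in YKH107 minus YKH106 was -0.63 with 2 lower against 37.3% of all genes, that in YKH108 minus YKH107 was -0.21 with 0 called, and that in YJS7 minus YKH101 was 0.46 with 0 called. With arrays scaled to a common median absolute deviation, 1 member was higher in YKH107 minus YKH106 (background 1.73%), where the members' median was 0.033, beside 0.50 on the main scale. On that scale 0 were lower in YKH108 minus YKH107 (background 0.965%; 4 at an unadjusted p under 0.05) and 0 in YJS7 minus YKH101 (background 0.854%; 5 at an unadjusted p under 0.05).

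Without YKH106 replicate 1 or 2, or YKH107 replicate 1, 3 members differed in YKH107 minus YKH106, a count that leaned on these arrays, and without YKH107 replicate 2 there were 2. In YKH108 minus YKH107 there were 2 without YKH107 replicate 1 or either YKH108 array, and 0 without YKH107 replicate 2. In YJS7 minus YKH101 there were 0 without YKH101 replicate 1, 1 without YKH101 replicate 2 and 2 without YJS7 replicate 2. Without YKH109 replicate 2, 14 members were higher in YKH107 minus YKH106 (background 13.2%), 12 were lower in YKH108 minus YKH107 (background 9.97%) and 4 were lower in YJS7 minus YKH101 (background 6.87%).

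A further 6 pairs had 1 or 2 members past the test. PUP1 was higher in YJS9 than in YJS7, by 0.52 (adjusted p = 0.0479), where 9.03% of all genes were higher, and higher in YKH107 than in YKH104, by 0.63 (adjusted p = 0.0264; background 6.17%). PUP1 and RPN12 were higher in YKH109 than in YKH106, by 0.71 and 0.65 (background 10.6%). PRE2 was lower in YKH109 than in YKH107, with a difference of -0.67 (adjusted p = 0.0172; background 4.27%), and RPT4 lower in YKH108 than in YKH104, with -0.71 (adjusted p = 0.0482; background 7.01%). RPN11 was higher in YJS8 than in YJS7, by 2.90 (adjusted p = 0.0213; background 3.9%), and both strains were set against YJS6, where RPN11 scattered. With arrays scaled to a common median absolute deviation, 2 members were lower in YKH108 minus YKH104 (background 2.95%) and 0 were called in the other 5 pairs, with 0 to 7 at an unadjusted p under 0.05. On the deposited scale the calls of the other 5 pairs ended in the direction given. In YKH109 minus YKH106, 0 members were higher and 4 lower there (background 0.274% and 41.9%), with a median of -0.86, and in YKH107 minus YKH104, 0 were higher and 4 lower (background 0.0546% and 24.2%), with a median of -0.94. In YKH108 minus YKH104, 1 was lower (background 1.13%), with 28 at an unadjusted p under 0.05. In the 3 pairs YJS9 minus YJS7, YJS8 minus YJS7 and YKH109 minus YKH107 limma called 0 members there, with 4, 2 and 0 at an unadjusted p under 0.05. In the remaining 11 differences limma called 0 members, with 0 to 6 at an unadjusted p under 0.05. It called 0.0182% to 10.8% of all genes there in 1 direction or the other. Without centring, 2 of these 11 gave calls. In YKH109 minus YKH104, 13 members were lower, against 35.7% of all genes. The median of the 36 members was -1.14, beside -1.04 for all genes, and 29 members had an unadjusted p under 0.05. In YKH108 minus YKH106, 1 member was lower, against 9.43%. The other 9 gave 0, with 0 or 1 at an unadjusted p under 0.05. With the repeated column taken as YKH100 alone, 1 member was higher in YJS8 minus YKH100 (background 4.05%) and 3 in YKH101 minus YKH100 (background 6.52%).

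YJS8 was measured with and without the shift, in both cases against YJS6. At 37 °C, on 1 array, PUP1 read 0.70, PRE6 0.97 and PRE2 0.69. At 26 °C PUP1 read -0.23 and -0.06, PRE6 -0.12 and -0.095 and PRE2 -0.058 and -0.14. The value at 37 °C lay above both values at 26 °C for each gene. The difference was 1.07 for PRE6 (adjusted p = 0.0248), 0.98 for PUP1 (adjusted p = 0.0155) and 0.82 for PRE2 (adjusted p = 0.0397), the 3 members higher at 37 °C, where 4.37% of all genes were. Over the 36 members the median difference was 0.49, with 34 of 36 above 0. Without centring limma called 0 of them. With the repeated column taken as YKH100 alone, 3 members were higher at 37 °C (background 4.42%). With arrays scaled to a common spread 1 was (background 1.92%), and 4 were without YKH109 replicate 2 (background 5.18%). The 2 arrays of YJS8 at 26 °C correlated at -0.44 over all spots, the one strain pair below 0. The calls between temperatures leaned on replicate 2 at 26 °C.

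The ubiquitin pathway feeds the proteasome, and 27 of its genes were followed for comparison. In YKH107, 13 were higher and 0 lower, with a median of 0.40, and RAD6 (1.36), a conjugating enzyme, UBI4 (1.31), the stress-induced polyubiquitin gene, and MUB1 (1.19), which acts with a ubiquitin ligase that degrades Rpn4, had the largest values. YKH109 had 13 higher and 2 lower, led by UBC5 (0.94), UBI4 (0.93) and UFD1 (0.87), a partner of the segregase Cdc48. YKH101 had 9 and 1, led by UBI4 (1.64), UFD1 (0.89) and UFD4 (0.75), a ligase that binds the proteasome. YKH104 had 9 and 0, led by RAD6 (0.91), UBI4 (0.84) and DSK2 (0.75), a ubiquitin shuttle. In YJS9, where 9 proteasome genes were higher and 0 lower, 3 ubiquitin genes were higher and 4 lower, with UBI4 at 1.78, UBP14 at -0.93 and DOA4, a deubiquitinase that recycles ubiquitin, at -0.92. YKH108 had 4 higher and 1 lower, with UBC1, a conjugating enzyme, at -0.75, UBI4 at 0.66 and UFD1 at 0.66. YJS8 at 37 °C, where 26 were tested, had 3 and 0, led by UBI4 (0.96), RAD6 (0.73) and UFD1 (0.64). YJS7 had 2 and 1, with UBR1, the ligase of the N-end rule, at 0.89, UBP14 at -0.78 and UBC6 at 0.53. Limma called 0 of the 27 in YKH100, YKH106 and YJS8 at 26 °C, where 3, 5 and 0 had an unadjusted p under 0.05. Set against all tested genes of the strain, the share of the list that was higher was 48.1% in YKH107 (background 23.5%), 48.1% in YKH109 (25.1%), 33.3% in YKH101 (18.9%) and 33.3% in YKH104 (6.47%). It was 11.5% in YJS8 at 37 °C (background 8.14%), 7.41% in YJS7 (7.38%), 11.1% in YJS9 (20.9%) and 14.8% in YKH108 (17%), near or below the background in the last 3 of these. The share that was lower was below the background in each of these 8 strains, 14.8% in YJS9 against 23.1% being the highest. As deposited, the median of the list was -0.56 in YKH107, -0.45 in YKH109, -0.36 in YKH101 and 0.52 in YKH104.

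Of 11 assembly chaperones and minor subunits on the array, UBP6, the deubiquitinase bound to the proteasome base, was called most often. It was higher in YKH107 (1.34), YKH109 (0.94), YKH101 (0.82), YJS9 (0.70), YKH104 (0.69), YJS8 at 37 °C (0.62) and YKH108 (0.45). HUL5, the ubiquitin ligase that works against Ubp6 on the proteasome, was lower in YKH101 (-1.20), YKH108 (-1.10), YKH107 (-1.05) and YJS9 (-1.04). The list as a whole had 3 genes higher and 1 lower in YKH107, 3 and 2 in YKH109, 2 and 1 in YJS9, 2 and 0 in YKH104, 1 and 2 in YKH108, 1 and 1 in YKH101, and 1 and 0 in both YKH100 and YJS8 at 37 °C. With 11 genes each call is 9.09% of the list. The share higher was 27.3% in YKH107 (background 23.5%), 27.3% in YKH109 (25.1%), 18.2% in YJS9 (20.9%), 18.2% in YKH104 (6.47%) and 9.09% in YKH108 (17%), and the share lower was 18.2% in YKH109 (27.8%) and 18.2% in YKH108 (19.9%). Its medians in YKH107, YKH104 and YKH101 were 0.22, 0.29 and -0.011, beside 0.73, 0.60 and 0.59 for the members, and as deposited they were -0.74, 0.39 and -0.70. IRC25, a chaperone of alpha ring assembly, was higher on the 1 array of YKH100 at 1.97. The other calls were SPG5, which regulates the proteasome in stationary phase, at 0.73 in YKH104 and 0.47 in YKH107 but -0.81 in YKH108 and -0.49 in YKH109, the core chaperone PBA1 at 1.03 in YJS9 and 0.60 in YKH109, and the base chaperones NAS2 at 0.47 in YKH107 and 0.52 in YKH109 and NAS6 at -0.75 in YKH109.

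Of the 4 factors that bind the RPN4 promoter, YAP1, which responds to oxidants, was higher in YJS8 at 37 °C (1.25), YKH109 (0.85), YKH101 (0.81), YKH107 (0.80), YKH104 (0.58), YJS9 (0.58) and YKH108 (0.58). HSF1, the heat shock factor, was higher in YKH107 (0.85), YKH109 (0.76), YKH101 (0.69), YJS9 (0.66) and YKH108 (0.50). PDR3, a drug resistance factor, was higher in YKH109 (1.48), and PDR1 passed in no strain. In YJS8, YJS9 and YKH108, where YAP1 was higher, RPN4 did not pass the test. As deposited, the median of the 4 factors was -0.29 in YKH107 and -0.098 in YKH109, beside 0.67 and 0.81 after centring.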

How the data were processed

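Each file held 1 value per spot of a cDNA array with 6400 spots. Per the labels' protocols, a GenePix 4000A instrument scanned both channels and GenePix Pro 4.0 extracted the intensities. The deposited values are on a log2 scale, a ratio of the 2 channels. Their normalization and direction are not given in the sources used here. Per the labels, 30 arrays fall into 11 strain groups and 2 self groups.

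Each array was centred on its median spot. Of 6400 spots, 5578 carried 1 gene symbol and 822 none, and 5573 symbols matched the gene table, where DOA10 is listed as SSM4. Spots of a gene were averaged. One limma fit (version 3.58.1, R 4.3.3) on 21 strain arrays had a term for each group and 1 dye term, with Benjamini-Hochberg adjustment over all genes tested in a group, which needed values on at least 18 arrays. It had 9 residual degrees of freedom. The fit was tested on simulated data. The number of arrays limits the precision. Alternatives were the deposited scale, arrays scaled to a common spread, the repeated column under either or both strains, no dye term, no filter, robust moderation, self arrays in the fit, leaving out each array, and, chosen after seeing the data, a dye term for each reference strain.

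RPN4, UMP1, ECM29 and BLM10 are named in every group, with the 3 highest and 3 lowest other members and the 3 largest called values of each related list. Members and lists were chosen with earlier results of these data known. The search for promoter motifs was not run, because no promoter sequence was used here.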

Additional observations from a re-analysis of the deposited data

Results flagged for a closer look

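A closer look is warranted at 3 proteasome genes that differed between the temperatures of YJS8, each by the test of the difference itself in limma. PRE6 stood 1.07 higher on the log2 scale at 37 °C than at 26 °C, PUP1 stood 0.98 higher and PRE2 stood 0.82 higher, with 1 array at 37 °C above both arrays at 26 °C for each gene. The 3 genes are 8.33% of the members, and of all genes 4.37% were higher in this difference. The 2 arrays at 26 °C correlated at -0.44 over all spots, and the calls leaned on replicate 2 of that temperature. On the deposited scale limma called 0 members in this difference (background 0% higher), and with arrays scaled to a common median absolute deviation it called 1 (background 1.92%).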

How the results depend on the processing

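Of the 110 values of named genes, 10 were counted as reversed under some alternative, a count that leaves out other changes of sign. RPN4 in YKH108, for example, read 0.034 and 0.34 on its arrays after centring and -0.31 and -0.70 as deposited. In YJS9 RPN4 read 0.22 and 0.26 after centring and -0.23 and -0.30 as deposited. The 10 counted values follow. On the deposited scale RPN4 was -0.095 in YKH101 and -0.52 in YKH109, UMP1 was -0.11 in YKH107 and -0.26 in YKH109, PRE7 was -0.10 in YKH108 and -0.034 in YKH109, and RPN8 was -0.18 in YKH108. Without YKH109 replicate 2, RPN1 was 0.65, SCL1 0.38 and RPT3 0.81 in YKH109, while with each other array left out in turn they reached down to -2.04, -0.78 and -0.80. On the deposited scale 0 members were higher in YKH101, YJS7, YJS8 at 37 °C, YJS9, YKH104, YKH107, YKH108 and YKH109, while 2 were lower in YKH107, 2 in YKH108 and 8 in YKH109. The members' median was then 0.068 in YKH100, -0.099 in YKH101, 0.35 in YJS7, -0.23 in YJS8 at 26 °C, -0.33 in YJS8 at 37 °C, -0.19 in YJS9, 0.70 in YKH104, 0.44 in YKH106, -0.23 in YKH107, -0.49 in YKH108 and -0.41 in YKH109. The counts in the YJS8 temperature difference, YJS7 minus YKH101, YKH108 minus YKH107 and YKH107 minus YKH106 were 0 in the direction reported. That scale leaves the array medians in the spread between arrays. With arrays scaled to a common median absolute deviation, 11 members were higher in YKH101 (background 10.9%), 0 in YJS7 (6.42%), 2 in YJS8 at 37 °C (4.28%), 2 in YJS9 (11.5%), 6 in YKH106 (5.55%), 11 in YKH107 (10.2%), 1 in YKH108 (9.47%) and 11 in YKH109 (12.1%), and 0 were lower in YKH109 (15.7%). Medians were 0.38 in YKH100, 0.51 in YKH101, 0.25 in YJS9, 0.79 in YKH104, 0.50 in YKH106, 0.53 in YKH107 and 0.37 in YKH109. The 4 differences then gave 1, 0, 0 and 1 members. The cause was not tested. GCN5 read -6.01 on the repeated column, against 0.51 on the other array labelled YJS8 at 37 °C, so values with it under YJS8 go against that label. With it under both strains, the median was 0.17 in YKH100 and 0.31 in YJS8, 2 members were higher in YJS8 at 37 °C, 0 differed between its temperatures and 1 was lower in YJS7 minus YKH101. With it under YJS8 only, 0 were higher in YJS8 at 37 °C, its median was 0.31, 0 differed between temperatures and 1 was lower in YJS7 minus YKH101. With it under YKH100 only, the YKH100 median was 0.17. With no dye term 0 members were lower in YKH109. With a dye term for each reference strain, 3 members were higher in YJS7 (background 11.8%), and 14 were higher and 2 lower in YJS9 (24.3% and 27.3%). In the differences, 5 were higher at 37 °C than at 26 °C in YJS8 (7.04%), 8 lower in YJS7 minus YKH101 (9.26%) and 14 lower in YKH108 minus YKH107 (12.9%). Without a filter on missing values and with robust moderation, all 110 named values kept their direction and their side of the threshold.

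With 1 array left out at a time, the count of members higher was 0 to 2 in YJS7, 7 to 13 in YJS8 at 37 °C, 1 to 13 in YJS9, 6 to 26 in YKH101, 0 to 25 in YKH104, 15 to 27 in YKH107, 0 to 9 in YKH108, 17 to 24 in YKH109, 0 to 4 in the YJS8 temperature difference and 2 to 14 in YKH107 minus YKH106. The count lower was 0 to 1 in YJS7, 0 to 2 in YJS9, 1 to 1 in YKH107, 0 to 1 in YKH108, 0 to 1 in YKH109, 0 to 4 in YJS7 minus YKH101 and 0 to 12 in YKH108 minus YKH107. Medians were 0.11 to 0.17 in YJS7, -0.093 to 0.15 in YJS8 at 26 °C, 0.52 to 0.56 in YJS8 at 37 °C, 0.22 to 0.32 in YJS9, 0.28 to 0.31 in YKH100, 0.53 to 0.63 in YKH101, 0.53 to 0.60 in YKH104, 0.21 to 0.28 in YKH106, 0.73 to 0.75 in YKH107, 0.12 to 0.30 in YKH108 and 0.47 to 0.67 in YKH109. Where that leaves a lone array in a strain, its spread was taken from the remaining strains. No paired analysis was possible because replicate numbers were given in accession order and follow the channel order, so that a block on the numbers could not be told apart from a dye effect. The motif search was not run. Genotypes, depth and signal over background were not used here, and YKH100 and YJS8 at 37 °C rest on 1 array each.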
